A study of Mus musculus with 6 samples.

Results

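The genes described are the enzymes that write, keep and remove DNA methylation in the mouse: the DNA methyltransferases Dnmt1, Dnmt3a and Dnmt3b, the hemimethyl-DNA binding proteins Uhrf1 and Uhrf2, the dioxygenases Tet1, Tet2 and Tet3, and the glycosylase Tdg. They were chosen by symbol, and all 9 were found among the 21135 genes measured and passed the filter of a mean of at least 10 normalised reads. RNA was sequenced from thymocytes of C57BL/6 mice at the DN3 stage, when cells carry neither CD4 nor CD8 and assemble their T-cell receptor beta chain. NMe is a distal enhancer of Myc to which Notch binds. Of 6 libraries, 3 came from animals wild type for NMe, and 3 from homozygotes in which GATA sites 1 and 2 of this enhancer were mutated. The labels give neither the age nor the sex of the mice, no treatment, and no statement of whether each library is a separate animal. The comparison asks how the state of the enhancer, through whatever it does to the cell, is accompanied by changes in these RNAs.

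Methylation of cytosine in CpG pairs is laid down on unmethylated DNA by DNMT3A and DNMT3B and is copied at each round of replication by DNMT1, which UHRF1 brings to the half-methylated daughter strands. TET enzymes oxidise methylcytosine with oxygen, iron and alpha-ketoglutarate, and TDG cuts out the later oxidation products so that base excision repair can restore plain cytosine. In T-cell development Dnmt1 is needed for the survival of thymocytes, and loss of Dnmt3a or of Tet2 is known from T-cell leukaemia and lymphoma.

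The 6 libraries held 38.6 to 51.3 M recovered reads. Values are read counts divided by 1 size factor per library, called normalised reads here. Myc had 18041 to 20196 normalised reads in the wild type and 4612 to 6165 in the mutant. All 16 DN3 marker genes were present, and 10 of them were called higher and 1 lower in the mutant. Their summed level was 505553 to 559357 in the wild type against 654598 to 788694 in the mutant, with Il2ra, which encodes CD25, among those higher. Of the markers of other cells that were listed, 13 of 13 for other thymocyte stages summed to 17197 to 27777 in the wild type and 31913 to 36989.7 in the mutant. For NK and innate lymphoid cells 5 of 8 were present and summed to 14324 to 17561 and 19910.4 to 31834, mostly Gzma and Nkg7, with Eomes at 0 to 7.4. For B cells 5 of 8 summed to 18114 to 20803 and 13183.5 to 15393, mostly Ighm. Those 3 sums did not overlap between genotypes. For thymic stroma 4 of 10 summed to 8229 to 10043.5 and 9984 to 13544, with 1 called higher. For myeloid and dendritic cells 7 of 10 summed to 1228 to 1777 and 1316 to 2248, with 3 tested and 0 called. Of 8 erythroid markers 7 were present, and summed to 8231 in wild type replicate 2 and to 76.5 to 139 in the other libraries. The part of these cells in the results was not tested. In bulk RNA, fewer cells of a kind and less RNA per cell cannot be told apart.

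Among the 9 genes Dnmt1 and Tdg fell in the mutant and 0 rose, at an adjusted p under 0.05 in limma. Over all 17815 tested genes 18.8% were called, 10.9% lower and 7.94% higher. At an unadjusted limma p under 0.05 there were 3 lower and 2 higher genes of the 9. With edgeR 2 were lower and 0 higher, where 18.4% of all genes were called (10.2% lower and 8.2% higher). With DESeq2 2 were lower and 1, Tet3, higher, where 23.4% were called (12.8% lower and 10.6% higher). The median log2 change of the 9 was -0.13, against 0.03 for all tested genes. For 6 of the 9 genes the libraries of the genotypes did not overlap, 4 lower and 2 higher. That held for 38.3% of all tested genes, 20.3% lower and 18% higher.

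**Figure D1:**
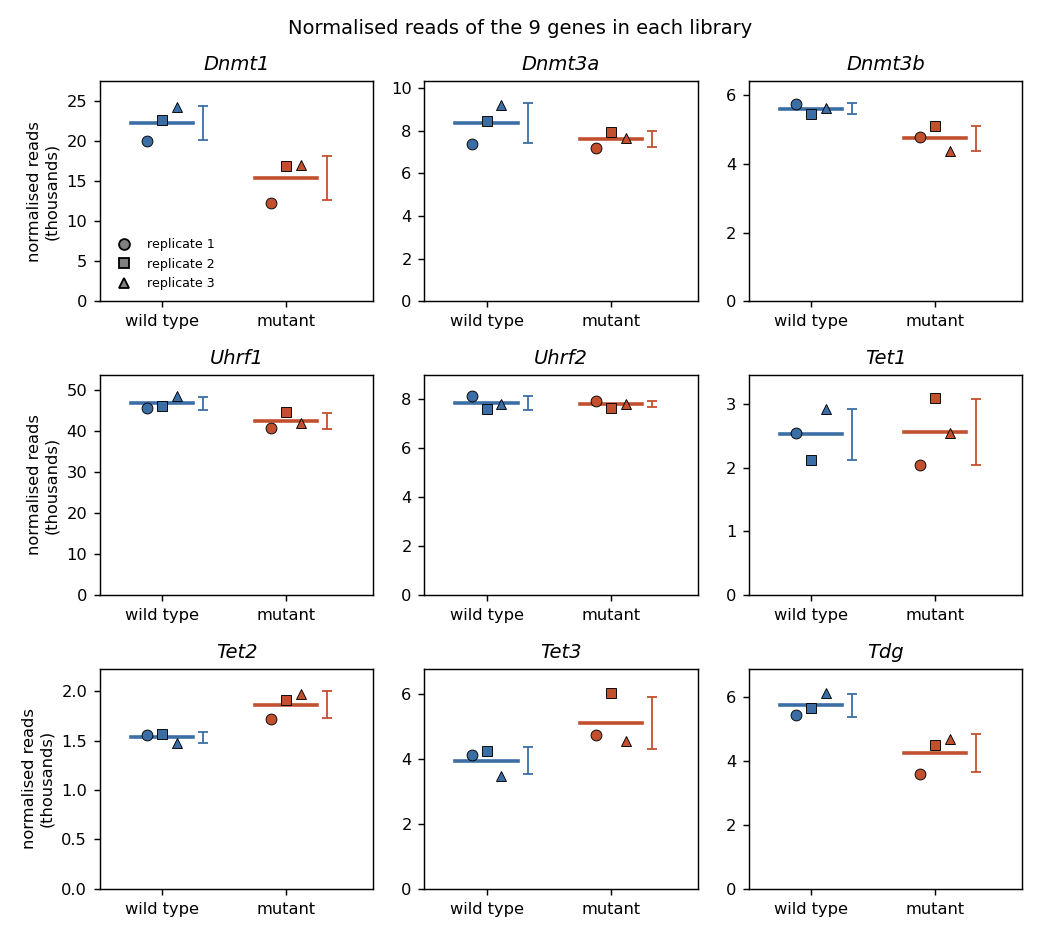
Normalised reads (in units of 1000, axes from 0) of each of the 9 genes in 3 wild-type (blue) and 3 mutant (red) libraries. Symbols mark the replicate, horizontal bars the mean and the error bars the SD (n = 3). The genotypes are apart for Dnmt1, Tdg, Dnmt3b, Uhrf1, Tet2 and Tet3, and overlap for Dnmt3a, Uhrf2 and Tet1.

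Dnmt1, the maintenance methyltransferase (chromosome 9, GRCm38, 20907209 to 20959888, minus strand), had 19981, 22625 and 24234 normalised reads in the wild type and 12238, 16961 and 17053 in the mutant. Every mutant library lay below every wild-type library, and mutant replicate 1 stood lowest. The mean fell 1.45-fold, from 22280.1 ± 2147 to 15417 ± 2754 (SD, n = 3 each), with a log2 change of -0.54 ± 0.14 (SE, 95% confidence interval -0.85 to -0.24, limma adjusted p = 0.0218). The call was lost without wild type replicate 2 (-0.53, adjusted p = 0.0755), the library with the erythroid reads, and without wild type replicate 3 (-0.48, adjusted p = 0.0702). It was also lost with a variance model that ignores abundance (adjusted p = 0.104). DESeq2 gave the smallest adjusted p of all alternatives, 0.00389.

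Uhrf1, the factor that recruits DNMT1 to newly replicated DNA (chromosome 17, 56303321 to 56323486), was the most abundant of the 9. It had 45519.8, 46112 and 48374 normalised reads in the wild type and 40789.7, 44569.7 and 42009.8 in the mutant. These ranges did not overlap, but they lay close together. The difference of -0.14 ± 0.08 did not pass the test (adjusted p = 0.276, interval -0.32 to 0.05). Its paralogue Uhrf2 (chromosome 19, 30030513 to 30093722), which cannot replace UHRF1 in maintenance, had 8147, 7604 and 7790.4 in the wild type and 7913, 7659 and 7803 in the mutant. The libraries of the genotypes were interleaved, with a difference of -0.01 ± 0.09 (adjusted p = 0.949, interval -0.20 to 0.18).

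Dnmt3a, a de novo methyltransferase (chromosome 12, 3806007 to 3914443), had 7387, 8460.3 and 9218 normalised reads in the wild type and 7184, 7927 and 7653 in the mutant. The ranges overlapped and the difference of -0.13 ± 0.11 did not pass (adjusted p = 0.407, interval -0.37 to 0.10). Dnmt3b, the other de novo enzyme (chromosome 2, 153649450 to 153687730), had 5747, 5447 and 5639 in the wild type and 4775, 5104 and 4381 in the mutant. All mutant libraries lay below the wild-type ones, the spread within the wild type was small (152.3, SD), and the difference of -0.24 ± 0.10 still did not pass (adjusted p = 0.113, interval -0.46 to -0.02). An antisense gene, Dnmt3bos, overlaps it. The library kits used keep no record of the strand, but Dnmt3bos averaged 53.6 normalised reads against 5182 for Dnmt3b.

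Of the TET genes none was called in limma, and the largest differences were higher in the mutant. Tet3 (chromosome 6, 83362373 to 83459084) had 4126, 4245 and 3469.9 normalised reads in the wild type and 4744, 6039 and 4543 in the mutant. All 3 mutant libraries were above the wild-type ones, with mutant replicate 2 the highest. Its difference of 0.37 ± 0.13 (interval 0.07 to 0.66) missed the threshold in limma (adjusted p = 0.0832), and passed with equal library totals (adjusted p = 0.0488), with library weights (0.0475) and with DESeq2 (0.0439). It passed in 0 of 6 fits with 1 library left out (adjusted p from 0.0671 to 0.254), and was 0.24 without mutant replicate 2.

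Tet2 (chromosome 3, 133463679 to 133545139) had 1558, 1567 and 1469.8 in the wild type and 1714, 1906 and 1972 in the mutant. The genotypes were again apart, and the difference of 0.28 ± 0.11 did not pass (adjusted p = 0.109, interval 0.03 to 0.53). Tet1 (chromosome 10, 62804570 to 62908996) had 2546, 2111 and 2913 in the wild type and 2042, 3088 and 2539.8 in the mutant. Its libraries varied more within a genotype (SD 401.3 and 522.9) than between the means, which differed by 0.01 ± 0.17 (adjusted p = 0.972, interval -0.36 to 0.39).

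Tdg, thymine DNA glycosylase (chromosome 10, 82629828 to 82650799, plus strand), had 5429, 5654 and 6139 normalised reads in the wild type and 3589, 4519 and 4693.5 in the mutant. As with Dnmt1, the genotypes were apart and mutant replicate 1 was the lowest library. The mean fell 1.35-fold, from 5741 ± 363 to 4267 ± 594 (SD, n = 3 each), a log2 change of -0.44 ± 0.12 (interval -0.71 to -0.17, limma adjusted p = 0.0319). This call was near the threshold and did not hold in most fits with 1 library left out. It remained without mutant replicate 3 (limma adjusted p = 0.0293) and was lost without each of the other 5. The adjusted p was 0.0577, 0.0907 and 0.0956 without wild type replicates 1, 2 and 3, and 0.0678 and 0.0539 without mutant replicates 1 and 2. The log2 change in the fits with 1 library left out ran from -0.51 to -0.32. Calls over all genes were also fewer in those fits (1896 to 2793, against 3352). The call of Tdg was also lost with equal library totals (0.0635) and with the variance model that ignores abundance (0.11). The processed pseudogene Tdg-ps can share reads with Tdg, and averaged 129.7 normalised reads against 5004 for Tdg. The protein-coding gene Glt8d2 overlaps Tdg on the opposite strand, and averaged 1299 (difference 0.37 ± 0.14, adjusted p = 0.0902).

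**Figure D2:**
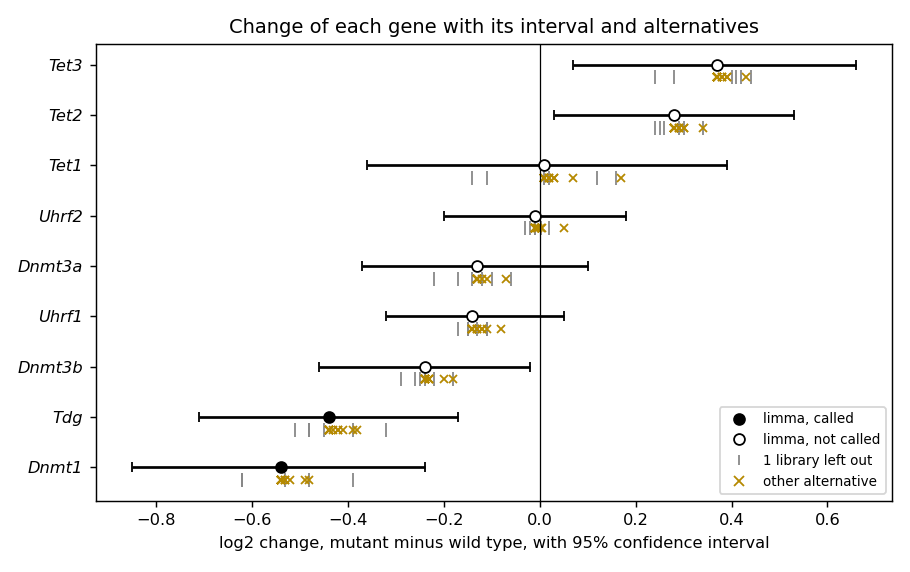
Log2 change (mutant minus wild type) of each gene with its 95% confidence interval from limma. Filled points were called (Dnmt1 and Tdg), grey ticks leave out 1 library and crosses are the other alternatives. Tet1 and Uhrf2 sit at 0.01 and -0.01 and cross 0 under some alternatives.

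The stretch before the start is shown for Dnmt1 and Tdg, the genes that fell. Tdg holds letters that MYC with its partner MAX is known to bind, and such binding was not tested. Sequences are from RefSeq on GRCm38.p6, read 5′ to 3′ on the strand of the gene, with annotated exons left out, and capitals mark CACGTG.
Tdg (chr10:82629588-82629827, plus strand): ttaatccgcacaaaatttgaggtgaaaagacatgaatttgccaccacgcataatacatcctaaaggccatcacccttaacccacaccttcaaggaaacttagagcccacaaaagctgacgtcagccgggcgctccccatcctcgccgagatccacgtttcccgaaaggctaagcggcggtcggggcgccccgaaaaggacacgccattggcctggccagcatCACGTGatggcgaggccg
Dnmt1 (chr9:20952624-20952707, minus strand): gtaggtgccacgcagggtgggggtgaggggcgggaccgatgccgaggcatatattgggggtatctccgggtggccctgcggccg
For Dnmt1, RefSeq lists 3 starts, and the one shown, inside the span of the gene, has the most CG pairs before it. The 10 bases between the end of the Tdg stretch and its RefSeq start lie in an annotated exon.

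The E-box CACGTG, which reads the same on both strands, begins 28 bases before the start of Tdg. Windows of the 250 bases before each RefSeq start were searched on both strands. Among 14 windows of the 9 genes, 2 held CACGTG, that of Tdg and 1 of the 3 windows of Dnmt3a (80 bases before the start). Dnmt3a did not pass the test of genotype (-0.13, adjusted p = 0.407), and no window of Dnmt1 held CACGTG. These letters occurred in 6.02% of 32817 windows of all genes. None of the 14 held TTTGGCGC or TTTCCCGC, letters of E2F sites (0.417% and 0.893% of all windows), or AGATAA or TGATAA, letters of GATA sites (9.99% and 7.95%). The pair CG, on which these enzymes act, occurred 19 times in the 250 bases before Tdg, where the median of all windows was 6. The 3 windows of Dnmt1 held 26, 7 and 2, and the first of these was chosen for that number.

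Levels of different genes were compared per kb of annotated exon. In the wild type the order of normalised reads per kb was Uhrf1 (10958 ± 354), Dnmt1 (3020.3 ± 291), Dnmt3b (1099 ± 29.8), Tdg (1068 ± 67.5), Uhrf2 (914 ± 32.1), Dnmt3a (502 ± 55.3), Tet3 (236 ± 25), Tet1 (163 ± 26) and Tet2 (90.8 ± 3.18, SD, n = 3). Only Dnmt3b and Tdg among neighbours had ranges that overlapped. In the mutant Uhrf2 (907 ± 14.8) ranked above Tdg (794 ± 110), its range overlapped that of Dnmt3b (931 ± 70.9), and the rest of the order was as in the wild type. Many annotated transcripts lengthen the exon total of some genes. With the longest coding transcript instead, a choice made after the values were seen, Uhrf1 and Dnmt1 still led, Uhrf2 followed (2219 ± 78.1 in the wild type), overlapping Dnmt1 in the mutant, and Tet1 and Tet2 overlapped.

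The makeup of each family was taken as the share of a gene in its family's summed reads per kb, a measure that does not depend on the scaling between libraries. Dnmt3a made up 10.4%, 11% and 11.2% of the DNMT sum in the wild type and 14.3%, 12.6% and 12.7% in the mutant. The genotypes were apart, and the share was 2.34 percentage points higher in the mutant (10.8 ± 0.425 against 13.2 ± 0.937, SD, n = 3 each). An exact two-sided permutation test gave p = 0.1, the smallest value that 3 libraries against 3 allow, so that none of the 7 shares could pass 0.05, and no adjusted value could be lower. The level of Dnmt3a itself was not higher in the mutant (log2 change -0.13), while that of Dnmt1, the largest part of the sum, fell (-0.54). The share of Dnmt1 was 63.3%, 66.1% and 66.5% in the wild type and 54.8%, 60.9% and 63.7% in the mutant. These ranges overlapped (exact permutation p = 0.2), and mutant replicate 1 was again the lowest.

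Dnmt3b made up 23.9% ± 2.13 in the wild type against 27% ± 3.66 in the mutant, with overlap. In the TET family Tet3 took the largest share, 48.2% ± 4.84 in the wild type against 52.6% ± 2.99 in the mutant, and Tet1 33.3% ± 5.4 and 28.3% ± 2.39. Both overlapped between genotypes, as did the share of Tet2 (18.5% ± 0.613 and 19.2% ± 2.22) and that of Uhrf2 in the UHRF pair (7.7% ± 0.398 and 8.35% ± 0.467). Exact permutation p for these 5 shares ran from 0.2 to 0.6.

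**Figure D3:**
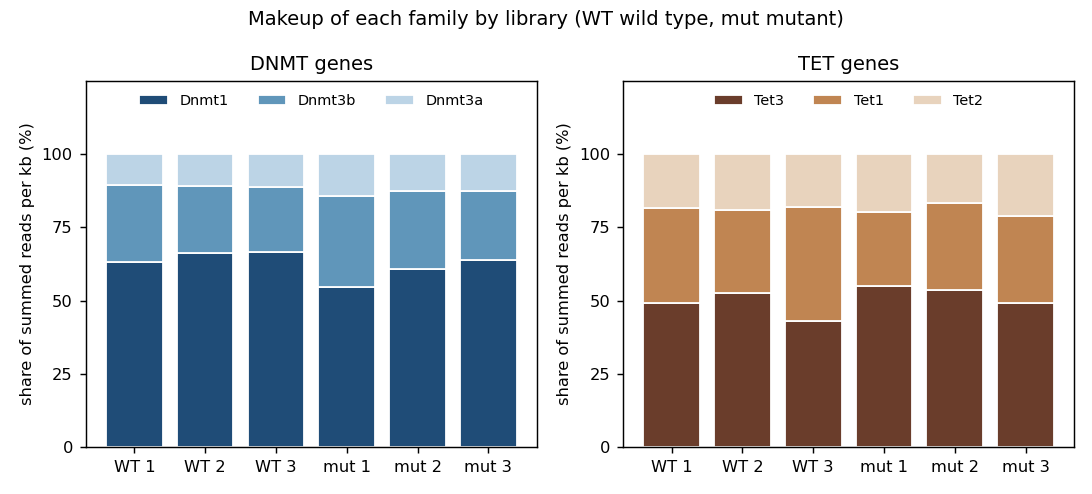
Share (%) of each gene in the summed normalised reads per kb of exon of its family, 1 bar per library. Left, Dnmt1, Dnmt3b and Dnmt3a, with Dnmt3a at 10.4% to 11.2% in the wild type (WT) and 12.6% to 14.3% in the mutant (mut); right, Tet3, Tet1 and Tet2, whose shares overlap between genotypes.

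Dnmt1 and Uhrf1 are transcribed most in cells that copy their DNA, so the 9 genes were set beside genes of S phase in the same libraries. Of 30 S-phase genes 20 fell and 0 rose in limma (0 at an unadjusted p under 0.05, and 0 with edgeR or DESeq2), with a median log2 change of -0.50. That is 66.7% called lower, against 10.9% of all tested genes. Mcm6 changed by -0.63 ± 0.10 and Mcm7 by -0.54 ± 0.09, both of the replicative helicase (adjusted p = 0.00269 and 0.004). The mean log2 level of the S-phase list came to 12.85, 12.97 and 13.12 for the wild type and 12.42, 12.50 and 12.69 for the mutant. The 6 libraries ranked in the same order by this mean as by Dnmt1 and by Tdg, with mutant replicate 1 the lowest and wild type replicate 3 the highest. Of 20 genes of G2 and mitosis 2 fell and 0 rose in limma, with a median of -0.21. That is 10%, against 10.9% of all tested genes called lower. With edgeR 1 was lower and with DESeq2 5 were, where 10.2% and 12.8% of all tested genes were called lower. At an unadjusted limma p under 0.05, 7 were lower, and 0 were higher by any of these rules. The mean log2 level of this list overlapped between genotypes. The 2 called in limma were Cdk1 (-0.46 ± 0.12, adjusted p = 0.0274) and Cdc20 (-0.37 ± 0.11, adjusted p = 0.0457). Their calls were lost without wild type replicate 2 (0.0708 and 0.108), among other libraries. Both were also lost with equal library totals (0.0517 and 0.09), and that of Cdc20 with edgeR (0.0601) and voom (0.0529).

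Relative to the S-phase mean of the same library, on the log2 scale, the difference between genotypes was -0.10 for Dnmt1 and 0.01 for Tdg, and the libraries overlapped for both. Dnmt1 stood 1.46 ± 0.03 above that mean in the wild type and 1.36 ± 0.19 above it in the mutant (SD, n = 3 each). Relative to the mean of the G2 and mitosis list, the difference was -0.35 for Dnmt1, with the genotypes apart, and -0.24 for Tdg, with overlap, so that the value depended on the list used. As the S-phase mean itself differed by -0.45, a gene with a difference near 0, such as Uhrf2 (-0.01), stood higher against it in the mutant (0.44). Uhrf1 (0.31), Dnmt3a (0.31), Tet1 (0.46), Tet2 (0.73) and Tet3 (0.81) also stood higher against it in the mutant, with the genotypes apart. Dnmt3b stood 0.20 higher, with overlap. The measure was chosen after the values were seen and carries no test, and the part of the share of cells in S phase in the change of Dnmt1 and Tdg was not tested.

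**Figure D4:**
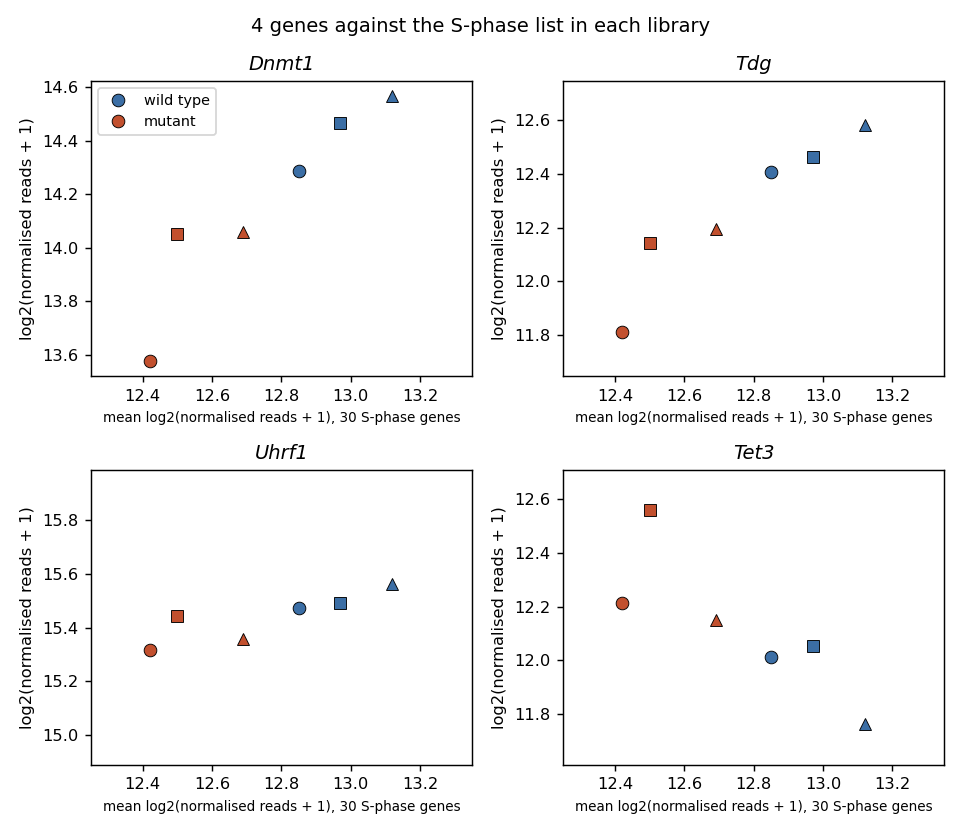
Level of 4 genes (log2 of normalised reads + 1, each axis spanning the same number of log2 units) against the mean log2 level of 30 S-phase genes, in 3 wild-type (blue) and 3 mutant (red) libraries, with symbols for replicates 1 (circle), 2 (square) and 3 (triangle). Dnmt1 and Tdg are higher where the S-phase mean is higher, Uhrf1 spans a narrow range, and Tet3 is lower in the 3 wild-type libraries.

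The tested genes whose pattern over the 6 libraries was most like that of Dnmt1 were Slc43a3 (Pearson r = 0.998) and Nup153, a nuclear pore gene (0.997). Those most like Tdg were Cand1, an exchange factor of cullin ligases (0.997), and Exoc8 of the exocyst (0.995). The difference between genotypes enters each r. Each r is also among the highest of all named genes tested, over only 6 libraries, a choice that makes it high. Of these 4, Cand1 passed the test of genotype (-0.43, adjusted p = 0.025), a call lost without wild type replicates 1 (0.0501), 2 (0.0798) or 3 (0.0766), and the other 3 did not pass (adjusted p from 0.0967 to 0.148).

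Each of the lists that follow is to be read beside all tested genes, of which 7.94% were called higher and 10.9% lower in limma, 18.8% in all. Among partners of the DNMT and UHRF proteins 29.2% were called. Of 24 tested genes (25 had a row in the table) 7 fell and 0 rose, with a median of -0.21; 1 was higher at an unadjusted p under 0.05, and 0 with edgeR or DESeq2. Cdca7 and Hells form the chromatin remodeller that opens nucleosomal DNA to methylation. Cdca7 had 31180.0, 34027 and 36584 normalised reads in the wild type and 19228, 20044 and 22595 in the mutant, without overlap (-0.72 ± 0.10, adjusted p = 0.00118). Hells fell by 0.67 ± 0.14 on the log2 scale (adjusted p = 0.0108), and the Cdca7 paralogue Cdca7l by 0.74 ± 0.10 (adjusted p = 0.00136). Lig1, the replicative DNA ligase whose methylated form UHRF1 binds, fell by 0.47 ± 0.11 (adjusted p = 0.0128), a call lost without wild type replicate 2 (0.0544).

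The list of CpG readers held genes of proteins that read CpG sites, methylated or not, and of some of their partners. Its genes were mostly not called. Of 19 tested 2 rose and 0 fell in limma, with a median of 0.14. That is 10.5% called, against 18.8% of all genes, where 7.94% were called higher. At an unadjusted p under 0.05, 1 was lower, and with edgeR or DESeq2 0 were. Zbtb4, a zinc-finger reader of methylated DNA, had 173, 189 and 152 normalised reads in the wild type and 436, 508 and 324 in the mutant, 2.47-fold higher (1.28 ± 0.21, adjusted p = 0.00289). Kmt2a, a histone methyltransferase with a domain for unmethylated CpG, rose 1.5-fold (0.57 ± 0.11, adjusted p = 0.00712). Cxxc5 (0.34 ± 0.12, adjusted p = 0.0693) and Mbd3, whose protein lacks affinity for methylcytosine (-0.30 ± 0.11, adjusted p = 0.0732), did not pass.

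Partners of TET and enzymes of base excision repair changed in both directions. Of 21 tested 6 fell and 3 rose (42.9% called), with a median of 0.08. Apex1, the endonuclease that cuts the site TDG leaves, had 1725, 1951 and 1858 normalised reads in the wild type and 990, 948 and 995 in the mutant, a 1.89-fold fall (-0.91 ± 0.11, adjusted p = 0.000729). Parp1, a sensor of strand breaks, fell by 0.72 ± 0.10 on the log2 scale (adjusted p = 0.00104), and the demethylase gene Alkbh1 by 0.56 ± 0.09 (adjusted p = 0.00255). Gadd45g, a stress-induced gene that has been linked to active demethylation, had 520, 402 and 363 in the wild type and 1236, 723 and 1656 in the mutant, 2.81-fold higher (1.43 ± 0.27, adjusted p = 0.00593).

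Of 13 tested genes of the methyl donor cycle, which supplies the S-adenosylmethionine that DNMTs use, 4 fell and 1 rose (38.5% called), with a median of -0.32. Adenosine kinase and S-adenosylhomocysteine hydrolase together clear the product that inhibits methyltransferases. Their genes fell 2.7-fold (Adk, -1.43 ± 0.12, adjusted p = 0.000106) and 2.01-fold (Ahcy, 3635, 3655 and 3143 against 1828, 1785 and 1575.5 normalised reads, -1.01 ± 0.11, adjusted p = 0.000487). Mmachc of cobalamin handling fell by 0.86 ± 0.15 on the log2 scale (adjusted p = 0.00457). Ahcyl2, a relative of Ahcy, rose by 0.37 ± 0.09 (adjusted p = 0.0217), and lost the call without wild type replicates 1 (0.0681) or 2 (0.0962) or mutant replicate 2 (0.0848).

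Genes of alpha-ketoglutarate metabolism, the cofactor of the TET enzymes and its neighbours, were called lower in 13 of 17 cases (76.5%) and higher in 0, with a median of -0.47; 1 was higher at an unadjusted p under 0.05, and 0 with edgeR or DESeq2. Fh1, fumarate hydratase, fell by 0.75 ± 0.11 on the log2 scale (adjusted p = 0.00134), Psat1, a transaminase of serine synthesis that yields alpha-ketoglutarate, by 0.97 ± 0.14 (adjusted p = 0.00137), and Bcat1, a transaminase that consumes it, by 4.06 ± 0.25 (adjusted p = 4.13e-05).

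**Figure D5:**
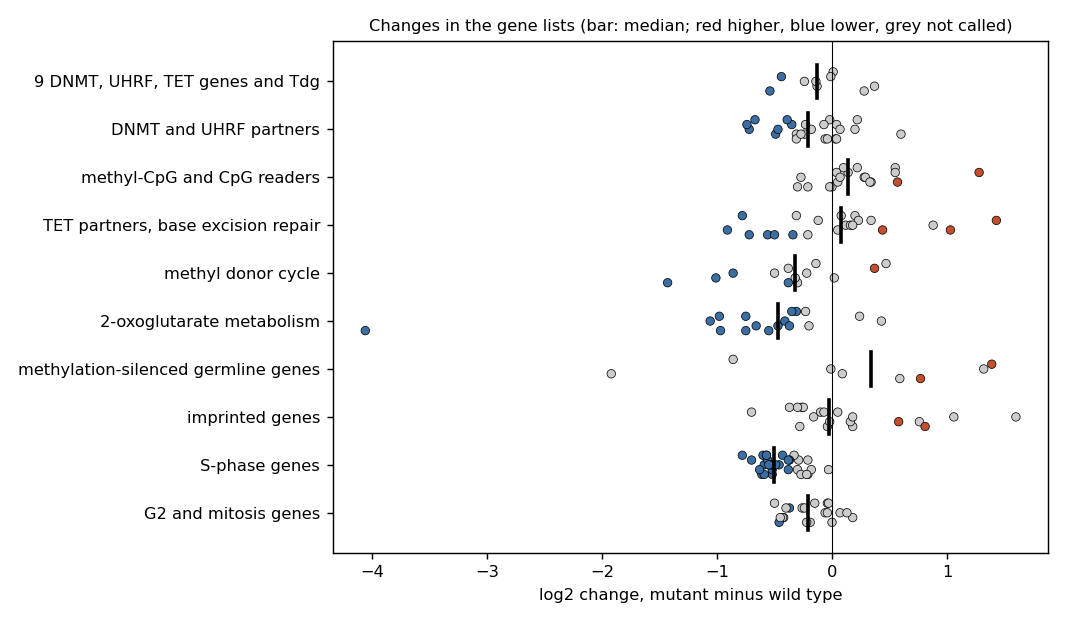
Log2 change (mutant minus wild type) of each tested gene in 10 lists, 1 point per gene, red where called higher, blue where called lower and grey where not called; bars are medians. The median of the 9 genes was -0.13, that of alpha-ketoglutarate metabolism (2-oxoglutarate on the axis) -0.47 and that of the S-phase list -0.50.

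Lists of genes tied to silencing by DNA methylation were read in the same libraries, and some of their genes were not silent in the wild type. Of 28 germline genes on the list, 9 had a row in the table, 8 were tested, 2 rose and 0 fell, against 7.94% of all genes called higher (0 lower at an unadjusted p under 0.05, and 0 with edgeR or DESeq2). Stag3, a meiotic cohesin subunit, had 129, 136 and 274 normalised reads in the wild type and 344, 320.5 and 798 in the mutant (1.39 ± 0.38, adjusted p = 0.0301), with the call lost without wild type replicates 1 (0.0963) or 2 (0.0987) or mutant replicate 3 (0.0775). Taf9b, a paralogue of a subunit of the general transcription machinery, had 542, 481 and 570.3 against 793, 945 and 993 (0.77 ± 0.15, adjusted p = 0.00601). Stag3 and Taf9b thus had reads in every wild-type library. Brdt (0.59 ± 0.38) and Tex11 (-1.92 ± 1.27) did not pass, and Tex11 ran from 8.0 to 163 within the wild type.

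Of 42 imprinted genes, whose parental copies differ in methylation, 26 had a row and 20 were tested. Of these 2 rose and 0 fell, with a median of -0.03. That is 10% called, against 18.8% of all genes, where 7.94% were called higher. At an unadjusted p under 0.05, 1 was lower, and with edgeR or DESeq2 0 were, while DESeq2 called 5 higher. Peg13, a noncoding RNA, had 359.5, 281 and 238 normalised reads in the wild type and 440.1, 599 and 495 in the mutant (0.81 ± 0.20, adjusted p = 0.0199), and Mcts2, a retrogene within H13, rose by 0.58 ± 0.17 (adjusted p = 0.0363). Both calls were lost without wild type replicate 2 (0.0656 and 0.112) or mutant replicate 2 (0.0753 and 0.0704), among others. Cdkn1c (1.06 ± 0.37, adjusted p = 0.0768) and Mest (1.60 ± 0.58, adjusted p = 0.0835) did not pass. DNA methylation itself was not measured in these libraries.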

How the data were processed

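The authors deposited a gene-level signal: read counts divided by 1 size factor per library. STAR 2.5.3, featureCounts and DESeq2 1.20.0 with mm10 and GRCm38 are named in the submitters' processing notes; the notes leave out counting options. Per the labels' protocols, cDNA was amplified with the SMART-Seq v4 kit and tagged with Nextera XT, which keep no strand. All values in a library were whole multiples of 1 step, so whole reads were recovered (100.0% of 126810 values within 0.1 reads). Symbols, positions and exon lengths came from GENCODE M21 on GRCm38 (21100 of 21135 genes matched).

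Genotype was tested with limma 3.58.1 in R 4.3.3 (lmFit, eBayes with trend) on log2(value + 1). The 17815 genes whose mean reached 10 were tested, two-sided, with Benjamini-Hochberg adjustment over all of them at 0.05, and changes are given as mutant minus wild type. Adjusted p-values come from limma where no other tool is given. Changes are on the log2(value + 1) scale, which understates those of rare transcripts. Errors of changes are SE and those of levels SD. Alternatives were other pseudocounts, filters, scalings and variance models, a replicate block, 1 library left out, and edgeR 4.0.16, DESeq2 1.42.0 and voom on the recovered reads. The limma, edgeR, DESeq2 and voom fits were also run on simulated counts, in which far fewer genes changed than were called here. That run checked the fits and does not bear on single calls. Libraries of 1 genotype differed by more than random sampling of reads gives (chi-square of 26.4 to 55.4 for each degree of freedom). These values cannot show whether the libraries came from separate animals. As no label names separate animals, p-values measure the spread between libraries.

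The genes and lists were chosen with earlier results of these data known; Mbd4, Cxxc5 and Ung (repair and S phase) sit in 2 lists each. Named were the 9 genes, Myc, up to 4 genes per list by smallest p (2 for the cell cycle lists), and the 2 genes most correlated with each called gene. Overlapping, pseudogene and marker genes were added after their values were seen. A gene chosen in this way is not reported here.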

Additional observations from a re-analysis of the deposited data

How the results depend on the processing

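Over 24 results and their alternatives, 333 of 379 recomputed values kept their direction and side of the threshold, or stayed within 1.5 times or 1 SD of the value given. Calls over all genes (3352) came to 1916 with a variance model that ignores abundance, and to 1896 to 2793 with 1 library left out, the lowest without wild type replicate 2. Equal library totals turned the split to 1827 higher and 1647 lower (1414 and 1938 otherwise). The variance model that ignores abundance also ended the calls of Dnmt1 (-0.54) and Tdg (-0.44), and left 2 calls among DNMT and UHRF partners, 1 among CpG readers, 4 among TET partners and repair, 3 in the methyl donor cycle, 8 in alpha-ketoglutarate metabolism, 1 germline and 0 imprinted. With equal totals Tdg (-0.38) lost its call, Tet3 (0.43) gained one and Uhrf2 turned to 0.05. Uhrf2 was 0.003 with edgeR and 0.004 with voom. Tet3 passed with library weights (0.39), which called 4 CpG readers, and with DESeq2 (0.38), which called 5 imprinted genes. Leaving out 1 library gave -0.62 to -0.39 for Dnmt1, -0.51 to -0.32 for Tdg, -0.03 to 0.02 for Uhrf2 and -0.14 to 0.16 for Tet1, and 4 to 6 calls among DNMT and UHRF partners, 3 to 5 in the methyl donor cycle, 8 to 13 in alpha-ketoglutarate metabolism, 1 to 2 germline and 0 to 2 imprinted. Without division by length the difference in share was 4.46 points for Dnmt3a and 1.12 for Uhrf2 (1.13 with the longest coding transcript, added after seeing the data). The causes were not tested. Same-numbered libraries did not deviate together (correlations -0.0218, -0.0664 and -0.00972), and with the replicate number as a block 3066 genes were called, with Dnmt1 (-0.54, adjusted p = 0.00742) and Tdg still called. With 3 libraries a genotype, the intervals reach 0.66 for Tet3 and 0.53 for Tet2.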
